A study of Mus musculus with 6 samples.

Results

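The genes described here are 9 that encode enzymes of glycolysis, *Hk1*, *Hk2*, *Pfkl*, *Aldoa*, *Tpi1*, *Pgk1*, *Eno1*, *Pkm* and *Ldha*, and *Bpgm*, which encodes the enzyme that makes 2,3-bisphosphoglycerate. They were chosen by name, and 10 of 10 were found among the 12101 genes of the expression table. Expression was measured by RNA-seq in megakaryocyte–erythroid progenitors (MEPs), bone marrow cells from which red blood cells and megakaryocytes develop, sorted from adult *Nanog* transgenic mice of strain CD-1. In these mice a reverse transactivator made from the *Rosa26* locus switches on a tetO-*Nanog* transgene inserted at *Col1a1* when doxycycline (dox) is given, so that the transgene can be induced in any cell type and not in MEPs alone. The dox-treated group is 3 libraries from mice that had dox in the drinking water for 5 days, and the untreated group is 3 libraries from mice of the same genotype without dox. Dox was given to the treated group only, and no mice without the transgenes are among these libraries, so an effect of dox itself and of *Nanog* cannot be told apart. MEPs were sorted as lineage-negative, cKit+ and Sca1- cells by their CD34 and CD16/32 staining. The age and number of mice behind each library are not given in the sources used here, so p-values measure the spread between these libraries.

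Glycolysis splits glucose into pyruvate in the cytosol. The hexokinases trap glucose as its phosphate, phosphofructokinase commits it to the pathway, aldolase and triose phosphate isomerase make triose phosphates, and phosphoglycerate kinase, enolase and pyruvate kinase yield ATP and pyruvate, which lactate dehydrogenase reduces to lactate. Mature red cells have no mitochondria and live on this pathway. They also divert 1,3-bisphosphoglycerate through bisphosphoglycerate mutase, the product of *Bpgm*, to 2,3-bisphosphoglycerate, which binds haemoglobin and lowers its affinity for oxygen. Most steps have several isozymes whose genes are used in different tissues, such as *Pklr* for pyruvate kinase in red cells and liver and *Pkm* in most other cells.

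The deposited values are log2 CPM, where CPM are counts scaled to a library of 1000000 reads after adding 0.5 reads. Library depth on the genes of the table ran from 11264803 to 16153600 reads, 3 reads were worth 0.193 to 0.273 CPM, and the 10 genes had between 144 and 14229 reads in a library. *Nanog*, the induced gene, had 17062, 19609 and 15959 reads in dox-treated replicates 1, 2 and 3 and 9, 13 and 1 reads in the untreated replicates, so every library matched its label. Dox-treated replicate 3 stood apart from the other 2 dox-treated libraries. On the first principal component of all genes it lay at -14.8, where dox-treated replicates 1 and 2 lay at -57.5 and -56.3 and the untreated libraries between 35.1 and 54.2, and on the second it lay at -51.7 against -4.83 to 20.2 for the other 5. Library scaling also differed. The reads on listed genes were 0.931 and 0.924 times the normalized library size in dox-treated replicates 1 and 2, and 1.02 to 1.06 times in the other 4 libraries. The fold changes of the 10 genes are therefore given with and without dox-treated replicate 3.

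*Bpgm* rose with dox, and none of the 9 glycolytic enzymes passed the test. In limma's test over 12088 genes with Benjamini–Hochberg adjustment, 1 of the 10 genes was higher with dox at an adjusted p under 0.05, where 4.59% of all genes tested were. None was lower, where 3.18% of all genes were. At an unadjusted p under 0.05, *Bpgm* was higher, against 15.6% of all genes, and *Pfkl* and *Aldoa* were lower, against 13.6%. The same 3 genes were those with no overlap between dox-treated and untreated values, 1 higher with dox against 17.7% of all genes and 2 lower against 18.2%. The fold change was negative for 9 of the 10 genes, and for 6367 of all 12088 genes tested. It was negative for 6 of the 10 after quantile normalization or with CPM of the summed reads, where *Pgk1*, *Pkm* and *Ldha* had the opposite sign. The median log2 fold change over the 10 was -0.27, against -0.03 over all genes tested, and -0.11 and -0.16 under those 2 scalings.

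Without dox-treated replicate 3 the count of falls changed from 0 to 3. *Hk1*, *Tpi1* and *Eno1* were then lower with dox at an adjusted p under 0.05 (limma), against 14.0% of all genes, and *Bpgm* was the 1 gene higher, against 14.9%. In dox-treated replicates 1 and 2, 7 of the 10 genes lay below all 3 untreated libraries, as 35.5% of all genes did, and *Bpgm* lay above them, as 31.1% did. In dox-treated replicate 3, 5 of the 10 genes lay above all untreated libraries, as 35.3% of all genes did, 3 lay below them, as 34.3% did, and 2 lay within their range. Between dox-treated replicate 3 and the mean of the other 2 dox-treated libraries, the log2 difference was 0.56 for *Hk1*, 0.54 for *Tpi1*, 0.50 for *Eno1*, 0.42 for *Pgk1* and 0.37 for *Ldha*. It was -0.87 for *Hk2* and -0.78 for *Pkm*.

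**Figure D1:**
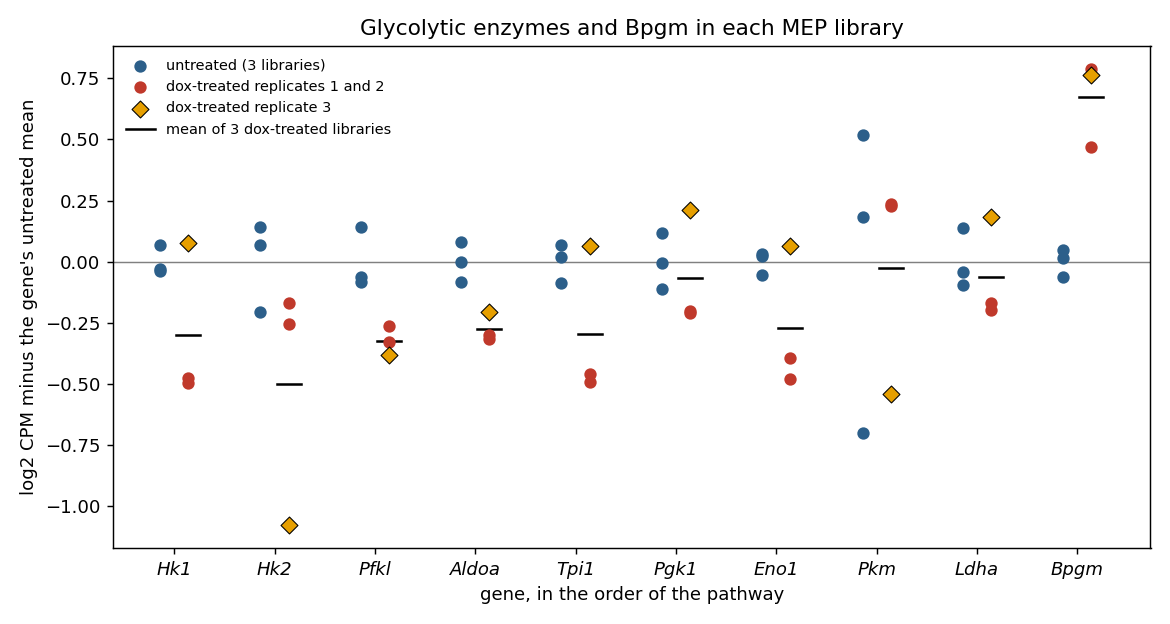
Each point is 1 library's log2 CPM minus the mean of the gene's 3 untreated libraries, for the 9 glycolytic enzymes and *Bpgm*, with black lines at the mean of the 3 dox-treated libraries. Dox-treated replicate 3, drawn as a diamond, lies above the untreated libraries for *Hk1*, *Pgk1*, *Eno1*, *Ldha* and *Bpgm*, while dox-treated replicates 1 and 2 lie below them for 7 genes.

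The start regions of *Bpgm*, *Ldha* and *Pgk1* are printed here because *Bpgm* passed the test and the other 2 enzymes did not, and because the best known regulator of glycolytic genes, hypoxia-inducible factor (HIF), binds a short core sequence in them. Each is the 250 bases before the RefSeq start site on the + strand of GRCm38.p6, a later build than that of the expression table, in lower case. ACGTG, the only form of the HIF core that was searched, is in capitals on either strand (CACGT is ACGTG on the other strand). *Bpgm* is shown from chr6:34476106-34476355, *Ldha* from chr7:46845554-46845803 and *Pgk1* from chrX:106186850-106187099.
Bpgm: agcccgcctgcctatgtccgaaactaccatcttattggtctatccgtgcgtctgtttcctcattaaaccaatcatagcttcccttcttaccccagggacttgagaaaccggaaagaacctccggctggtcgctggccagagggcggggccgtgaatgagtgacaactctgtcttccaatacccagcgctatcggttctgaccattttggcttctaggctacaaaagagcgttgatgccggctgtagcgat
Ldha: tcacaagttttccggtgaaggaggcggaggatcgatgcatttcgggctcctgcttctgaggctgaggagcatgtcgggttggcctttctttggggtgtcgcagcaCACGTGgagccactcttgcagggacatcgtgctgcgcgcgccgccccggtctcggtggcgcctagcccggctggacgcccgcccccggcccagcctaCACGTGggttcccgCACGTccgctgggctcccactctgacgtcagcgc
Pgk1: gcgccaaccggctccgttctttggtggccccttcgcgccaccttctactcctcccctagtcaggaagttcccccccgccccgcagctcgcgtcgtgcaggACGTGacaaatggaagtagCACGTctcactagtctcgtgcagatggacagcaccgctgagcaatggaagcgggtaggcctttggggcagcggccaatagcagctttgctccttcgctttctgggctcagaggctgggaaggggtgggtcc

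In *Ldha* the core began at -145, -144, -48, -47 and -34, counted from the start site, where both pairs of neighbouring positions are the 2 strands of the palindrome CACGTG. In *Pgk1* it began at -150 and -131, and in the window of *Bpgm* these letters do not occur. Over the promoter windows of RefSeq, each from 250 bases before to 50 bases after a start site, ACGTG on either strand was found in 7 of 17 windows of the 10 genes and in 19.6% of all 32851 windows. The genes with a window that holds it were *Hk1*, *Hk2*, *Aldoa*, *Pgk1*, *Pkm* and *Ldha*. The E-box CACGTG, which MYC and related factors bind and which contains ACGTG, was found in 1 of the 17 windows, at *Ldha*, and in 7.15% of all windows. The GATA motif, searched as AGATAA and TGATAA on both strands, was found in 2 of the 17, at *Aldoa* and *Pkm*, and in 18.6% of all windows. A match to these letters is a description of the sequence and not a measured binding site.

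*Hk1*, whose product is the hexokinase of red cells and brain, lies on chromosome 10 of NCBIM37 from 61731603 to 61842656 on the minus strand. It had 519, 526 and 773 CPM in dox-treated replicates 1, 2 and 3, and 713, 768 and 719 CPM in the untreated replicates. Dox-treated replicates 1 and 2 were below every untreated library and dox-treated replicate 3 was above them all, so the groups overlapped. The log2 fold change of *Hk1* was -0.30 (95% interval -0.74 to 0.14, adjusted p = 0.312, limma) with all 6 libraries and -0.49 (adjusted p = 0.021) without dox-treated replicate 3. *Hk1* shares 157 exonic bases with 2210417K05Rik, a transcript of the opposite strand that was not analysed here, and the use of strand in counting is not given in the sources used here.

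*Hk2*, the insulin- and HIF-responsive hexokinase of muscle and growing cells, lies on chromosome 6 from 82675019 to 82724448 on the minus strand. It had 17.4, 16.4 and 9.24 CPM in dox-treated replicates 1, 2 and 3, and 21.5, 16.9 and 20.5 CPM without dox. Its lowest value was in dox-treated replicate 3, the library in which *Hk1* was highest. *Hk2* differed by -0.50 on the log2 scale (95% interval -1.16 to 0.15, adjusted p = 0.265, limma), and -0.21 (adjusted p = 0.271) without that library.

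*Pfkl*, the liver-type subunit of phosphofructokinase, lies on chromosome 10 from 77449692 to 77472828 on the minus strand. It had 124, 118 and 114 CPM in dox-treated replicates 1, 2 and 3, and 142, 164 and 140.0 CPM in the untreated replicates. All dox-treated values were below all untreated values. The log2 fold change of *Pfkl* was -0.32 (standard error 0.11), with an unadjusted p of 0.026 and an adjusted p of 0.119 in limma's test. It was -0.30 (adjusted p = 0.096) without dox-treated replicate 3.

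*Aldoa*, the aldolase of muscle and red cells, lies on chromosome 7 from 133938748 to 133944265 on the minus strand. Its levels were 329, 325 and 351 CPM in dox-treated replicates 1, 2 and 3, and 383, 428 and 405 CPM without dox. The groups did not overlap here either, and in dox-treated replicate 3 *Aldoa* stayed below the untreated range. *Aldoa* had a log2 fold change of -0.27 with a standard error of 0.10, an unadjusted p of 0.035 and an adjusted p of 0.139 in limma's test, and -0.31 (adjusted p = 0.060) without dox-treated replicate 3.

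*Tpi1*, which encodes triose phosphate isomerase, lies on chromosome 6 from 124760604 to 124764314 on the minus strand. It had 283, 277 and 408 CPM in dox-treated replicates 1, 2 and 3, against 394, 409 and 367 CPM in the untreated libraries. Dox-treated replicate 3 fell within the untreated range, and the other 2 dox-treated libraries lay below it. For *Tpi1* the log2 fold change with 6 libraries was -0.30 (95% interval -0.73 to 0.14, adjusted p = 0.310, limma) and -0.48 (adjusted p = 0.025) without dox-treated replicate 3. *Tpi1* shares 34 exonic bases with *Spsb2* on the opposite strand.

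*Pgk1*, which encodes phosphoglycerate kinase, the first ATP-yielding step, lies on chromosome X from 103382439 to 103399038 on the plus strand. It had 214, 215 and 286 CPM in dox-treated replicates 1, 2 and 3, and 267, 246 and 228 CPM without dox. The log2 fold change of *Pgk1* was -0.07 (95% interval -0.44 to 0.31, adjusted p = 0.80, limma), and -0.20 (adjusted p = 0.179) without dox-treated replicate 3. *Ldha*, which encodes the main lactate dehydrogenase subunit of glycolytic tissues, lies on chromosome 7 from 54096845 to 54110997 on the plus strand and was distributed over the libraries in the same way. It had 701, 716 and 913 CPM with dox and 781, 886 and 752 CPM without. For *Ldha* the log2 fold change was -0.06 (95% interval -0.42 to 0.30, adjusted p = 0.802, limma), and -0.18 (adjusted p = 0.232) without dox-treated replicate 3. The sign of both fold changes depended on the scaling: it was positive, at 0.08 for *Pgk1* and 0.10 for *Ldha*, after quantile normalization, and positive, at 0.05 for both, with CPM of the summed reads, a scaling that raises the median fold change of all genes by 0.11.

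*Eno1*, which encodes the ubiquitous enolase, lies on chromosome 4 from 149610830 to 149622988 on the plus strand. It had 121, 128 and 176 CPM in dox-treated replicates 1, 2 and 3, and 172, 162 and 172 CPM in the untreated replicates. As for *Hk1*, dox-treated replicates 1 and 2 were below and dox-treated replicate 3 above all untreated values. The fold change of *Eno1* on the log2 scale was -0.27 (standard error 0.17, adjusted p = 0.320, limma) and -0.44 (adjusted p = 0.026) without dox-treated replicate 3. The value carries a further uncertainty, because *Gm5506* and *Gm13699*, which are listed in the table, are near-identical copies of *Eno1*, and *Eno1* held only 37.8% to 41.0% of the reads of the 3 together. With the reads of the 3 summed, untreated MEPs had 435 ± 15.7 CPM and dox-treated MEPs 362 ± 59.5 CPM (SD, n = 3 each). The log2 difference was -0.28, or -0.41 without dox-treated replicate 3. Copies at least 200 bases long and 95% identical were also found at 4 places in the genome for *Pgk1*, 4 for *Ldha*, 1 for *Tpi1* and 1 for *Pkm*, none of them listed in the table. None was found for *Hk1*, *Hk2*, *Pfkl*, *Aldoa* or *Bpgm*.

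*Pkm*, which the annotation calls *Pkm2*, encodes the pyruvate kinase of most tissues and of white blood cells, and lies on chromosome 9 from 59504383 to 59527182 on the plus strand. It was the most variable of the 10 genes in untreated MEPs, at 210.0, 90.01 and 166 CPM, and had 172, 172 and 100 CPM in dox-treated replicates 1, 2 and 3. The untreated values thus spread over more than the whole dox-treated range. The fold change of *Pkm* on the log2 scale was -0.03 (95% interval -0.95 to 0.89, adjusted p = 0.968, limma), an interval too wide to tell a fall from a rise. Its sign turned to 0.23 without dox-treated replicate 3, and was also positive under quantile normalization and with CPM of the summed reads. The granulocyte-monocyte markers, described further on, had their lowest sums in each group in the same libraries as *Pkm*, untreated replicate 2 and dox-treated replicate 3, and their part in the spread of *Pkm* was not tested.

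*Bpgm* lies on chromosome 6 from 34426207 to 34455613 on the plus strand. It had 386, 477 and 543 reads in dox-treated replicates 1, 2 and 3, and 267, 266 and 233 reads in the untreated libraries. These reads correspond to 28.4, 35.5 and 34.8 CPM with dox, a mean of 32.9 ± 3.91 CPM (SD, n = 3), and to 20.8, 19.7 and 21.2 CPM without, a mean of 20.5 ± 0.794 CPM (SD, n = 3). The lowest dox-treated library, replicate 1, was above the highest untreated one. On the log2 scale the fold change of *Bpgm* was 0.67 (standard error 0.13, 95% interval 0.37 to 0.98, adjusted p = 0.036, limma), a rise of 59.5%. It was 0.63 (adjusted p = 0.027) without dox-treated replicate 3. When any one of the other 5 libraries was left out the log2 fold change lay between 0.62 and 0.78, and the adjusted p rose to 0.065 without dox-treated replicate 1, 0.137 without dox-treated replicate 2, and 0.10, 0.111 and 0.113 without untreated replicates 1, 2 and 3.

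**Figure D2:**
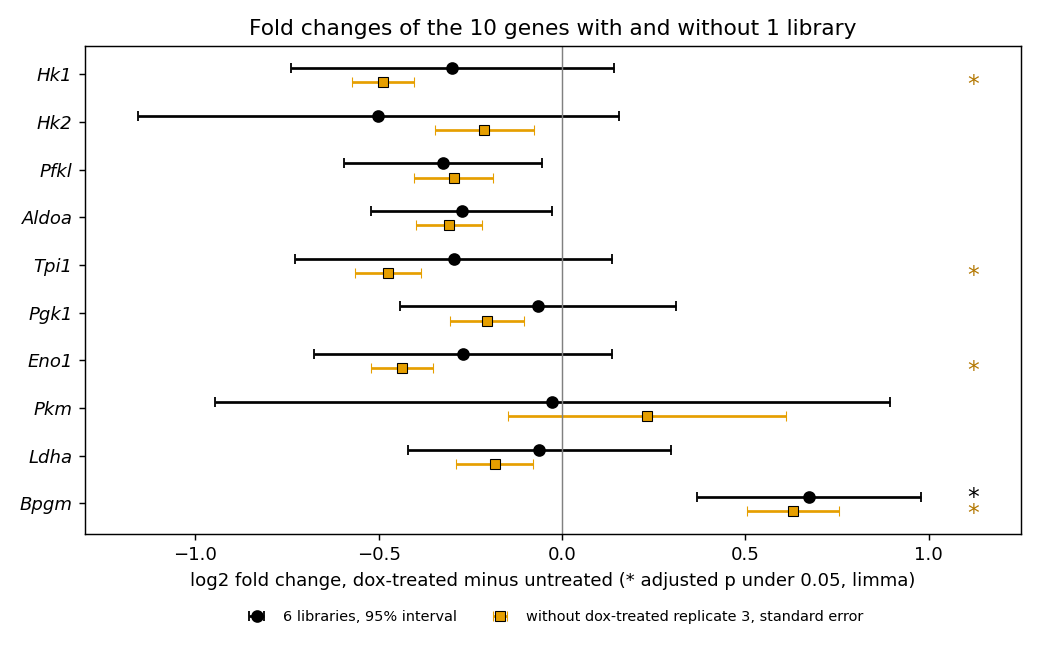
Log2 fold changes, dox-treated minus untreated, from limma for the 10 genes, with all 6 libraries (circles, bars for the 95% interval) and without dox-treated replicate 3 (squares, bars for the standard error); asterisks mark an adjusted p under 0.05. *Bpgm* is at 0.67 and 0.63, and the intervals of the 9 glycolytic enzymes with 6 libraries are centred below 0, where *Pgk1*, *Pkm* and *Ldha* turn positive after quantile normalization or with CPM of the summed reads.

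The 9 glycolytic enzymes together had 2479, 2494 and 3130 CPM in dox-treated replicates 1, 2 and 3, and 3083, 3171 and 2970 CPM in the untreated replicates. Dox-treated replicate 3 again lay with the untreated libraries, and the other 2 below them. As a share of the reads on listed genes, without any normalized library size, the 9 enzymes took 0.266%, 0.270% and 0.302% with dox and 0.298%, 0.300% and 0.290% without. The order of the libraries within this share was the same except between untreated replicate 2 and dox-treated replicate 3. The summed CPM of the 16 erythroid markers in the table were likewise higher in dox-treated replicate 3, at 6195, than in dox-treated replicates 1 and 2, at 3614 and 3494, and were 5596 to 5771 in the untreated libraries. More than any other marker, *Car1*, carbonic anhydrase 1, made up this sum. Without *Car1* it was 2153, 2214 and 2837 CPM in dox-treated replicates 1, 2 and 3 and 3125 to 3737 in the untreated libraries, so that dox-treated replicate 3 was then below all of these. In that library 9 of the 16 markers were below the untreated range, as 34.3% of all genes were, and 5 above it, as 35.3% were. The part that this marker level plays in the fall of *Hk1*, *Tpi1* and *Eno1* in dox-treated replicates 1 and 2 was not tested. In bulk libraries such as these, fewer cells of a type and less RNA per cell cannot be told apart.

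Levels of different genes were compared as CPM per kb of the longest coding transcript of each gene. In untreated MEPs *Ldha* was highest, at 457 ± 39.9 CPM per kb (SD, n = 3). *Aldoa* at 262 ± 14.7 and *Tpi1* at 243 ± 13.4 followed, with overlapping libraries. *Hk1* came next at 197 ± 8.18, then *Pgk1* at 136 ± 10.8, each apart from its neighbours in all 3 untreated libraries. *Eno1* at 83.2 ± 2.76, a value that counts only the reads listed under *Eno1* itself and is 215 ± 7.77 with those of its copies, above *Hk1*, overlapped with *Pkm* at 69.9 ± 27.3, as did *Pkm* and *Pfkl*, which was at 39.8 ± 3.52. *Bpgm*, at 9.25 ± 0.358, and *Hk2*, at 3.56 ± 0.438, were at the end of the order, and their libraries overlapped with no other gene's. Over the means of the 3 dox-treated libraries the order was the same, with *Ldha* at 440 ± 67.1 CPM per kb, *Bpgm* at 14.8 ± 1.76 and *Hk2* at 2.60 ± 0.805. In single libraries of both groups it differed. *Pkm* was above *Eno1* in dox-treated replicates 1 and 2 and in untreated replicate 1. *Tpi1* was above *Aldoa* in dox-treated replicate 3, and *Pfkl* above *Pkm* in untreated replicate 2. *Bpgm* ranked ninth of the 10 genes in all 6 libraries. With the length of all exons of a gene in place of the transcript, *Tpi1* ranked above *Aldoa*, *Pgk1* above *Hk1*, and *Eno1* fell to rank 8.

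Within the steps that have several isozymes in the table, the share of each isozyme in the step's summed CPM per kb was compared, 16 shares in all. *Hk1* held 89.3% ± 3.62 (SD, n = 3) of hexokinase in untreated and 94.8% ± 2.48 (SD, n = 3) in dox-treated MEPs. *Hk3*, the hexokinase of myeloid cells, held 9.03% ± 3.43 without dox and 3.60% ± 1.78 with dox, with no overlap between the groups, while *Hk2* was at 1.62% in both. Among the phosphofructokinase subunits *Pfkm*, the muscle-type subunit, exceeded *Pfkl* in every library. The share of *Pfkm* was 58.5% ± 2.43 without dox and 68.2% ± 1.67 with dox, and that of *Pfkl* 35.4% ± 1.54 and 26.3% ± 1.53, and neither overlapped between the groups. *Eno1* held 88.3% ± 1.57 of enolase without dox and 81.2% ± 2.60 with dox, the rest being *Eno3*, the muscle enolase, and these values count only the reads listed under *Eno1* itself. For the shares of *Hk3*, *Pfkl*, *Pfkm*, *Eno1*, *Eno3*, *Aldoa*, *Aldoc*, *Ldha* and *Ldhb* the two-sided exact permutation p was 0.1, the smallest that 3 libraries against 3 allow, and 0.178 after Benjamini–Hochberg adjustment over the 16 shares, so that none could pass the threshold. Over dox-treated replicates 1 and 2 alone the mean share was 93.4% for *Hk1*, 4.56% for *Hk3*, 26.4% for *Pfkl*, 67.6% for *Pfkm* and 79.996% for *Eno1*.

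Reads of both pyruvate kinase genes were found in every MEP library. *Pklr*, the gene used by red cells, held 71.1% ± 9.05 (SD, n = 3) of the step without dox and 54.5% ± 15.5 (SD, n = 3) with dox, and *Pkm* the rest. In the single libraries the share of *Pkm* was 36.7%, 19.0% and 31.1% in untreated replicates 1, 2 and 3, and 52.5%, 56.3% and 27.8% in dox-treated replicates 1, 2 and 3. Dox-treated replicate 3 lay within the untreated range, and the exact permutation p was 0.3. Without it the mean share of *Pkm* with dox was 54.4%. The level of the whole step was 237 ± 22.3 CPM per kb without dox and 149 ± 12.8 with dox. Lactate dehydrogenase was almost entirely *Ldha*, at 98.7% ± 0.29 without dox and 99.6% ± 0.12 with dox, and aldolase almost entirely *Aldoa*, at 99.9% and 99.5%. Of the phosphoglycerate mutases, *Pgam1*, the enzyme of the main pathway, was higher per kb than *Bpgm* in every library, and the share of *Bpgm* in their sum was 14.7% ± 2.38 without and 19.3% ± 4.35 with dox (exact permutation p = 0.2), or 16.8% with dox without dox-treated replicate 3.

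**Figure D3:**
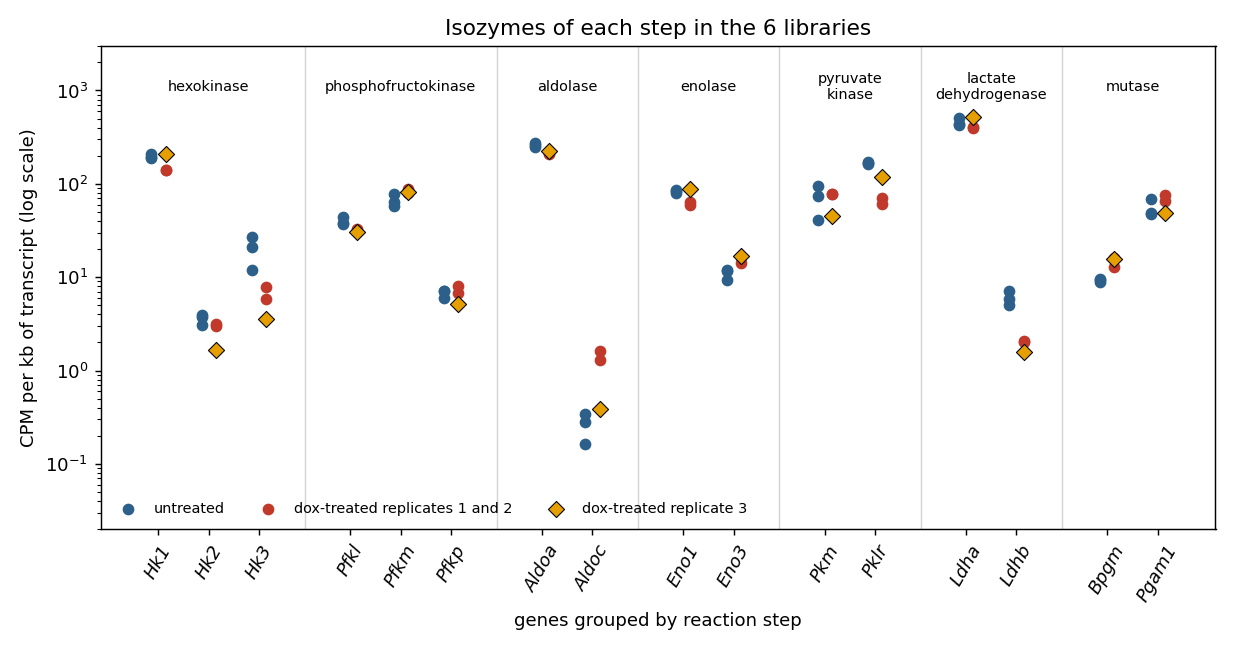
CPM per kb of transcript on a log scale for each isozyme of 7 steps in the 3 untreated libraries (blue), dox-treated replicates 1 and 2 (red) and dox-treated replicate 3 (diamond). *Hk3*, *Pfkl*, *Aldoa*, *Pklr* and *Ldhb* are lower in all dox-treated than in all untreated libraries, as 18.2% of all genes are. *Pfkm*, *Aldoc*, *Eno3* and *Bpgm* are higher in all of them, as 17.7% of all genes are. The other isozymes, among them *Pkm*, overlap between the groups.

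Of the 11 other glycolytic enzymes that were tested, 1 fell with dox and none rose at an adjusted p under 0.05 (limma). *Ldhb*, the lactate dehydrogenase subunit of oxidative tissues, fell from 7.77 ± 1.31 to 2.46 ± 0.358 CPM (SD, n = 3 each), a log2 fold change of -1.64 (adjusted p = 0.011). The fall was of the same direction in every library, at 37, 35 and 32 reads with dox and 118, 89 and 83 reads without, and its adjusted p was 0.053 without untreated replicate 3. *Hk3* had 18.5 ± 6.82 CPM with dox and 64.1 ± 24.5 without (log2 fold change -1.78, adjusted p = 0.054). *Pklr* had 2646, 2251 and 5112 reads in dox-treated replicates 1, 2 and 3 and 5851, 6529 and 5083 reads in the untreated replicates, with a log2 fold change of -1.08 (adjusted p = 0.059), and -1.37 (adjusted p = 0.005) without dox-treated replicate 3. In CPM these are 195, 168 and 328 with dox and 455, 482 and 462 without, with dox-treated replicate 3 between the other 2 dox-treated libraries and the untreated ones. The values of *Eno3* gave 0.53 on the log2 scale (adjusted p = 0.077), those of *Pfkm* 0.33 (adjusted p = 0.186), of *Pgam1* 0.21 (adjusted p = 0.552) and of *Pfkp*, the platelet-type phosphofructokinase subunit, -0.04 (adjusted p = 0.902). *Aldoc*, the brain aldolase, was low throughout, at 49, 60 and 17 reads with dox and 10, 13 and 5 without (log2 fold change 1.83, adjusted p = 0.10). Without dox-treated replicate 3, 1 of the 11 enzymes was called higher, *Aldoc* (2.45 on the log2 scale, adjusted p = 0.014), where 14.9% of all genes were, and 3 lower, *Ldhb*, *Pklr* and *Hk3*, where 14.0% were. *Hk3* was then at -1.47 (adjusted p = 0.047).

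The enzymes that act on the regulators of the pathway gave no call. Of 6 genes tested, 0 rose and 0 fell at an adjusted p under 0.05, and 0 of the 6 had an unadjusted p under 0.05 (limma). *Minpp1*, which removes a phosphate from 2,3-bisphosphoglycerate, had 488 ± 145 CPM with dox and 631 ± 63.2 CPM without (log2 fold change -0.40, adjusted p = 0.272), and -0.63 (adjusted p = 0.022) without dox-treated replicate 3. Values of 0.70 (adjusted p = 0.222) on the log2 scale were found for *Pfkfb3* and of 0.46 (adjusted p = 0.207) for *Pfkfb4*, which set the level of fructose 2,6-bisphosphate, the activator of phosphofructokinase. For *Tigar*, a fructose-2,6-bisphosphatase, the value was -0.18 (adjusted p = 0.787), at 20 to 50 reads per library.

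Transporters and the pyruvate dehydrogenase genes also gave no call at an adjusted p under 0.05 in either direction (limma), in 9 and 11 genes tested. At an unadjusted p under 0.05 there were 1 higher and 3 lower in the first list and 2 higher and 2 lower in the second, where 15.6% of all genes were higher and 13.6% lower. The lactate transporters *Slc16a1* and *Slc16a3* had log2 fold changes of -0.63 (adjusted p = 0.120) and -0.74 (adjusted p = 0.073). The glucose transporter *Slc2a3* was at -0.40 (adjusted p = 0.096), and *Slc2a8* at 0.45 (adjusted p = 0.082). *Pdp1*, the phosphatase that activates pyruvate dehydrogenase, was at 0.82 (adjusted p = 0.060), and the kinases that inactivate it were at 0.40 for *Pdk1* (adjusted p = 0.124) and -0.44 for *Pdk3* (adjusted p = 0.14). *Dlat*, the acetyltransferase subunit, was at -0.52 (adjusted p = 0.094). Without dox-treated replicate 3 the counts were 0 higher and 3 lower among the transporters and 1 higher and 5 lower among the pyruvate dehydrogenase genes, where 14.9% of all genes were higher and 14.0% lower.

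In the pentose phosphate pathway, which branches from glycolysis at glucose 6-phosphate, the fold change was negative for 8 of 8 genes tested. It was negative for 6 of 8 after quantile normalization or with CPM of the summed reads. Of all 12088 genes tested, 6367 had a negative fold change with the deposited values. The median over the 8 was -0.26, and 1 fell at an adjusted p under 0.05 (limma), where 3.18% of all genes did. *Rpia*, ribose 5-phosphate isomerase, fell from 223 ± 29.7 to 145 ± 6.14 CPM (SD, n = 3 each; log2 fold change -0.62, adjusted p = 0.044). This call was lost when any library but dox-treated replicate 3 was left out, with adjusted p from 0.092 to 0.160, and was 0.055 with CPM of the summed reads. *Tkt*, transketolase, was at -0.42 (adjusted p = 0.096), *Pgd* at -0.40 (adjusted p = 0.108) and *Rpe* at -0.31 (adjusted p = 0.296). Without dox-treated replicate 3, 3 of the 8 genes, *Rpia*, *Tkt* and *Pgd*, fell with an adjusted p below 0.05, as did 14.0% of all genes. Among 10 genes of gluconeogenesis and glycogen 1 rose. *Pygb*, the brain-type glycogen phosphorylase, rose from 32.0 ± 2.37 to 51.2 ± 3.18 CPM (SD, n = 3 each; log2 fold change 0.68, adjusted p = 0.026), a change about as large as that of *Bpgm*. The adjusted p of *Pygb* was 0.070 to 0.104 when any library but dox-treated replicate 3 was left out. *Pcx* was at -0.44 (adjusted p = 0.138) and *Fbp1* at -1.74 (adjusted p = 0.073), with 11 to 16 reads per library with dox and 22 to 78 without.

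Of 17 HIF factors, regulators and targets outside glycolysis, 0 rose and 0 fell at an adjusted p under 0.05 (limma), and at an unadjusted p under 0.05 there were 5 higher, where 15.6% of all genes were, and 2 lower, where 13.6% were. On the log2 scale the fold change was 1.71 for *Ndrg1* (adjusted p = 0.093), 0.78 for *Bnip3* (adjusted p = 0.097), 0.53 for *Kdm3a* (adjusted p = 0.075) and -0.52 for *Vegfa* (adjusted p = 0.101). The median over the 17 was 0.05. Over all 72 genes of these lists 1 rose and 2 fell. Without dox-treated replicate 3 the counts were 4 and 16 of the 72, where 14.9% of all genes rose and 14.0% fell.

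**Figure D4:**
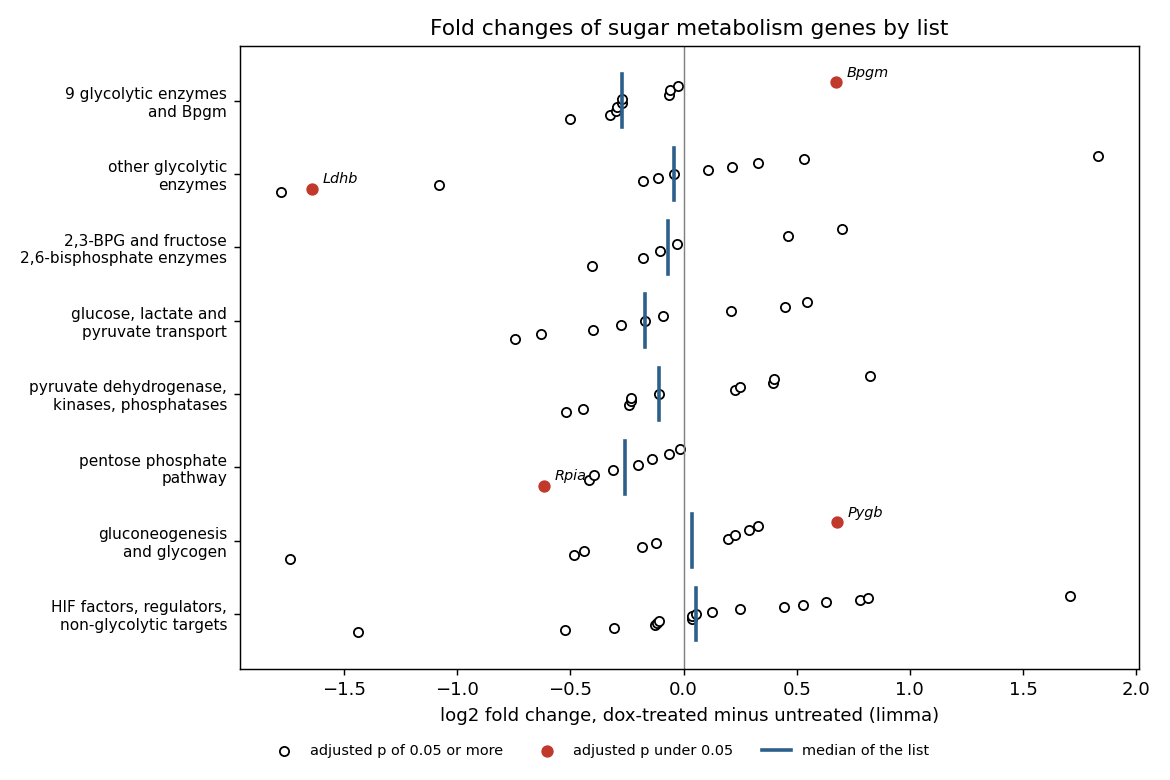
Each circle is the log2 fold change (limma, dox-treated minus untreated) of 1 gene, for the 9 glycolytic enzymes with *Bpgm* and for 7 lists of other sugar metabolism and HIF genes, with a bar at each list's median and filled circles for an adjusted p under 0.05. Filled are *Bpgm* and *Pygb* on the right and *Ldhb* and *Rpia* on the left.

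Marker genes of the sorted cells and of other cell types were examined beside these results. Erythroid genes were present in every library, with *Gata1* at 172 CPM with dox and 229 without. At an adjusted p under 0.05 (limma), 2 of 16 fell (*Epb4.2* and *Ermap*), where 3.18% of all genes did, and none rose, where 4.59% did. Of the 16, 9 had non-overlapping groups with dox lower, against 18.2% of all genes, and 0 with dox higher, against 17.7%. At an unadjusted p under 0.05 there were 6 lower, where 13.6% of all genes were, and 2 higher, where 15.6% were. These 2 were *Alas2*, with a log2 fold change of 0.75, and *Hbb-b1*, with 1.21. *Ahsp* is not listed in the table. Of 10 granulocyte-monocyte markers 7 fell, where 3.18% of all genes did, and none rose. All 10 had non-overlapping groups with dox lower, as 18.2% of all genes did. Their summed level was 498 to 735 CPM with dox and 2279 to 5270 CPM without, with *Mpo* alone at 430 and 2431 CPM, and no marker of this list was at 0 CPM in the group means. *Hk3* and *Fbp1*, which myeloid cells express, also had lower values in all dox-treated than in all untreated libraries, with adjusted p of 0.054 and 0.073 (limma), and the part of this list in their values was not tested. Of 5 mast cell markers 3 rose, where 4.59% of all genes did, and none fell. Their sum was 238 to 440 CPM with dox and 74.5 to 146 without. Of 7 megakaryocyte markers 3 rose, where 4.59% of all genes did, and 1 fell, where 3.18% did. Their sum was 118 to 391 CPM with dox and 81.1 to 115 without. *Itga2b*, which is not one of the 3, made up much of that sum with dox, and without it the sums were 71.9, 66.5 and 51.3 CPM with dox and 57.0 to 75.6 without. The sum of the 5 stem cell and progenitor markers was 421 to 553 CPM with dox and 362 to 560 without, and without *Kit*, which made up most of it in each library, 98.4 to 234 CPM with dox and 34.7 to 85.2 without. That of the 6 lymphoid markers was 13.3 to 68.9 and 15.6 to 19.4. With all 6 libraries neither list had a call at an adjusted p under 0.05. Without dox-treated replicate 3, where 14.9% of all genes were called higher and 14.0% lower, 7 of the 16 erythroid and 7 of the 10 granulocyte-monocyte markers were lower, 4 of the 5 mast cell markers were higher, 4 megakaryocyte markers were higher and 1 lower, 2 stem cell and progenitor markers, *Cd34* and *Hlf*, were higher, and no lymphoid marker was called. The part of these marker levels in the rise of *Bpgm* was not tested.

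The genes whose 6 library values were most like those of *Bpgm*, by the root mean square difference of log2 CPM after centring each gene on its mean, were *Dopey1* at 0.05, *Chfr* at 0.05, *Inpp4b* at 0.07, *Reep5* at 0.07 and *Fam175b* at 0.07. All 5 were higher with dox, as genes selected for this likeness must be. *Chfr*, a mitotic checkpoint ubiquitin ligase, had 114 CPM with dox and 71.8 without, and *Inpp4b*, a phosphoinositide phosphatase, 16.4 and 9.65. None of the 5 is in the sugar metabolism lists.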

How the data were processed

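RNA-seq was analysed from 6 libraries of sorted MEPs, 3 dox-treated and 3 untreated, grouped by their titles. Adapter removal by the authors used Cutadapt, quantification used RSEM with the Ensembl transcriptome of NCBIM37, and limma served for normalization. The deposited values of the 12101 genes are log2 CPM that include an offset of 0.5 reads, 1 column per replicate. The filter on low genes, the method of library scaling and the use of strand are not given in the sources used here. Whole reads were recovered from the deposited log2 values in every library (100% whole) and used for depth. The value of 3 reads, given as a floor, covers counting error only, since PCR copies of 1 molecule are counted more than once, and the 95% intervals are limma's, from the spread between libraries.

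Differential expression used limma 3.58.1 (R 4.3.3), lmFit and eBayes on the deposited values, for the 12088 genes that reached 1 CPM in 3 or more libraries. P-values were adjusted by Benjamini–Hochberg and called under 0.05. Log2 fold changes understate the change of genes with few reads. Tables and figures used Python 3.11.15, pandas 2.3.3 and matplotlib 3.10.9. The 10 genes and all lists were chosen with earlier results of these data known. Named from each other list were the called genes, up to 4 genes by smallest p, and all isozymes of the steps of the 10 genes. One gene that this rule names is not reported here. Single marker genes were named after their values were seen. Symbols matched 12067 of the 12101 identifiers. Gene positions came from the GENCODE annotation of NCBIM37, which is older than the gene set of the table, and promoters from RefSeq on GRCm38.p6. Of 88 other sugar metabolism and HIF genes 72 were tested and 16 are not listed in the table. Alternatives changed the pseudocount, filter, variance model, weights, scaling, threshold, block and libraries.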

Additional observations from a re-analysis of the deposited data

How the results depend on the processing

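The log2 fold changes of the 10 genes depended on the settings as follows. With array quality weights, which gave dox-treated replicate 3 a weight of 0.163, 5 of the 10 genes were lower with dox, where 2601 of all 12088 genes tested were. These 5 were at -0.45 for *Hk1*, -0.26 for *Pfkl*, -0.29 for *Aldoa*, -0.43 for *Tpi1* and -0.44 for *Eno1*. In this fit *Pkm* turned to 0.0632 and *Pfkp* to 0.0613. Quantile normalization turned *Pgk1* to 0.0779, *Pkm* to 0.0716 and *Ldha* to 0.10, and brought *Hk1* to -0.13, *Pfkl* to -0.20, *Aldoa* to -0.09, *Tpi1* to -0.13 and *Eno1* to -0.15. With CPM of the summed reads *Pgk1* was at 0.0450, *Pkm* at 0.0839, *Ldha* at 0.0488 and *Pfkp* at 0.0689, and *Hk1* at -0.19, *Pfkl* at -0.21, *Aldoa* at -0.16, *Tpi1* at -0.18 and *Eno1* at -0.16. When each library was left out in turn, *Bpgm* ranged from 0.62 to 0.78, *Hk1* from -0.49 to -0.20, *Tpi1* from -0.48 to -0.20, *Eno1* from -0.44 to -0.17, *Pgk1* from -0.20 to 0.0064, *Ldha* from -0.18 to 0.0082, *Pkm* from -0.38 to 0.23, *Pfkp* from -0.19 to 0.13 and *Tigar* from -0.51 to 0.18. Of the 10 genes, 0 to 1 were then higher and 0 to 3 lower, of the other 72 genes 0 to 4 and 0 to 16, and of all genes 92 to 1801 and 36 to 1687. The upper ends are those without dox-treated replicate 3. With all libraries 555 genes were higher and 384 lower. A mean-variance trend gave 909 and 747, array quality weights gave 2515 and 2601, and a threshold of 0.1 gave 1273 and 939. Of the 72 other genes, 1 higher and 2 lower became 2 and 4 with log2 of CPM plus 1, 2 and 4 with a filter of 5 CPM, 4 and 5 with a trend, 15 and 21 with array quality weights, 2 and 4 with voom weights, 3 and 5 with quantile normalization, 3 and 1 with summed reads, and 7 and 9 at a threshold of 0.1. The causes were not tested. Summing *Eno1* with its copies was chosen after seeing the data.

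Replicates are numbered 1 to 3 in both groups, and the labels do not say whether same-numbered libraries were handled together. The correlations of same-numbered deviations from the group means were 0.02, -0.12 and -0.30. Those of libraries with different numbers lay between -0.20 and 0.24. With 3 libraries per group such correlations cannot settle whether the libraries were paired. In the fit that held the replicate block, 53 genes were higher and 29 lower, 0 of the 72 in either direction, and 0 of the 10 higher, with *Bpgm* at 0.67 (adjusted p = 0.139, limma).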
